A study of Mus musculus with 6 samples.

Results

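Mouse ovarian surface epithelial cells homozygous for the p53 mutation R172H were compared with cells that carry R172H beside a wild-type p53 allele. By the titles the mutant allele is thus present on both sides, and its protein was not measured. The groups differ in the last wild-type copy and also in the number of mutant copies, and these cannot be told apart. The comparison takes 4 of the 6 arrays in the series, 2 homozygous and 2 heterozygous, assigned by their sample titles. The 2 arrays of cells with wild-type p53 only helped to estimate the spread between arrays and are given as reference levels.

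All cells came from mice of mixed background, and all sample titles carry the prefix P/K, which the labels do not spell out. The cells are described as tumour cells of the ovary surface, freed with trypsin and plated without passage in medium with serum, insulin, transferrin and selenium. The homozygous mice were 4 weeks old, the heterozygous mice 9 and 12 weeks old and the wild-type mice 9 weeks old, so age and homozygosity cannot be told apart. The labels name no promoter or Cre driver for the engineered alleles and do not say whether the 2 homozygous arrays came from separate animals, so p-values measure only the spread between these samples. In the homozygous samples 1 label field names p63, a relative, in place of p53, and the titles were followed.

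p53 is a transcription factor that damage and oncogene signals stabilise. It switches on genes that halt the cell cycle, trigger death, restrain growth or repair DNA, and it induces its own inhibitor Mdm2. R172H, the mouse form of a frequent human tumour mutation, unfolds the DNA-binding domain, so the mutant protein no longer recognises these sites. The ovarian surface epithelium is a mesothelial layer that carries keratins together with mesenchymal genes such as vimentin.

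Signals were read as log2 values with every signal under 25 set to 25, and of the probe sets of a gene the one with the highest mean stood for it. The average of the middle signals was 500.0 in each array, and the arrays' median signals lay between 41.1 and 60.6. The homozygous arrays differed from each other more than the heterozygous arrays did: 20.2% of tested genes differed over 2-fold between homozygous arrays 1 and 2, against 7.16% between the heterozygous arrays. The closest arrays of all were wild-type array 2 and heterozygous array 1, with 1.35% of genes over 2-fold apart. The actin 3′ over 5′ signal difference, a measure of RNA integrity that grows with degradation, was 0.59 and 0.39 (log2) in the homozygous arrays and 0.66 to 0.96 in the other 4. The signal of the 18S ribosomal RNA control was 6696 in homozygous array 2, below the 16873 to 22559 of the other 5 arrays, and its part in the differences between the homozygous arrays was not tested. Wt1, Upk1b and Krt8, which mark the labelled cell type, had signals of at least 8720.0 in all 4 wild-type and heterozygous arrays and were present in both homozygous arrays at lower levels.

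In all, 10916 of 18194 genes passed the filter on dim genes. With limma across the 6 arrays, 810 genes were called at an adjusted p under 0.05 (Benjamini-Hochberg): 179 were higher in the homozygous arrays, which is 1.64% of those tested, and 631 were lower, 5.78%. Counts of called members in the gene lists below are to be read beside these shares. The smallest called difference was 2.11-fold. Of the genes called lower, 81 had both homozygous arrays under the floor of 25 and a further 144 had 1 of them there, and the floor removes the spread between such arrays. Without the floor 95 genes were called higher and 351 lower. Without heterozygous array 1 limma called 0 genes, with 2497 at an unadjusted p under 0.05, and without heterozygous array 2 it called 0, with 1642. Without wild-type array 1 it called 13 higher and 194 lower, without wild-type array 2 it called 13 and 188, and without homozygous array 2 it called 840 and 2083. With 1 array of a genotype left out, the lone array is assumed to vary like the other groups, which then supply the whole spread. The homozygous pair supplies 65.6% of the variance pooled over the 3 genotypes, so these counts also move with the arrays left to estimate it. They do not give the size of the differences, which moved little in some lists and more in others. The median of 23 surface epithelium markers was -1.84 with all arrays, -1.75 without heterozygous array 1 and -2.03 without heterozygous array 2. For 30 G2 and mitosis genes these medians were 1.67, 2.49 and 0.82, and for 7 CDK inhibitors 0.70, 0.91 and 0.10.

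Agreement of the homozygous arrays was also described without a test. Both homozygous signals lay above both heterozygous signals for 28.2% of tested genes and below both for 34.7%. A stricter group had at least a 2-fold gap between the nearest arrays of the 2 genotypes and homozygous arrays within 2-fold of each other. It held 269 higher genes, 2.46% of those tested, and 657 lower genes, 6.02%, and 653 of these 926 genes were also called by limma. Just inside the gap on the higher side lay Wdhd1, with heterozygous signals of 505 and 217 and homozygous signals of 1424 and 1009.9. Just outside it lay Cep83, with 535 and 519.5 against 1069.5 and 1069. On the lower side Slc4a11 lay just inside (165 and 118 against 42.6 and 59) and Glmp just outside (1693 and 2302 against 837 and 847).

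**Figure D1:**
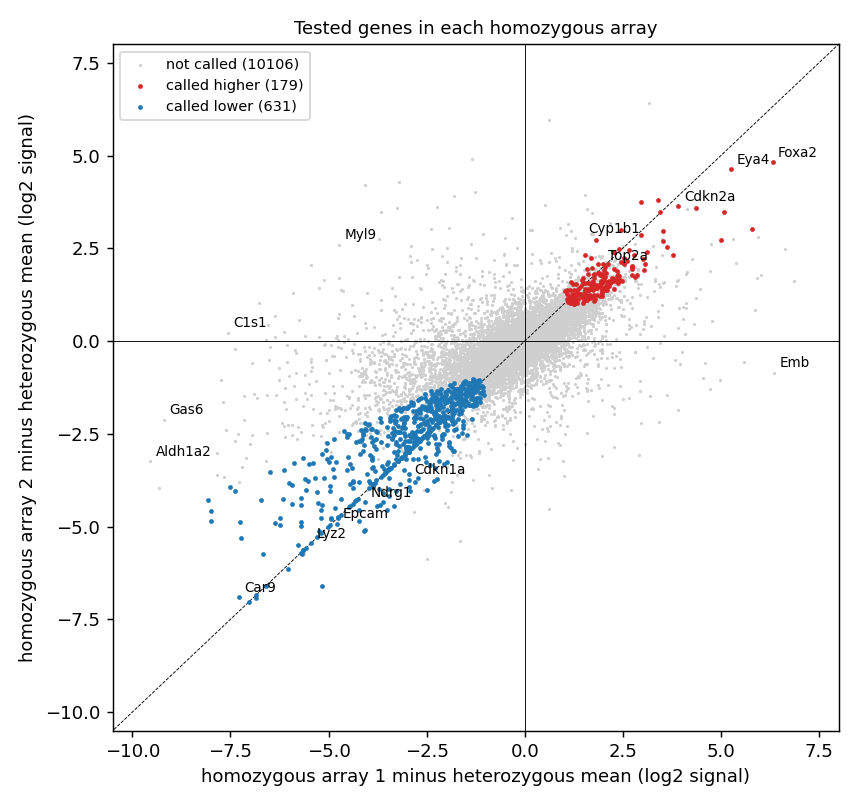
Difference of homozygous array 1 (x axis) and homozygous array 2 (y axis) from the mean of the heterozygous arrays, in log2 signal, for the 10916 tested genes. The dashed line marks equal difference: 681 of the 810 called genes (179 higher in red, 631 lower in blue) have homozygous arrays within 2-fold of each other, while uncalled genes such as Emb, Myl9 and C1s1 lie far from the line.

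The p53 target genes showed a divided picture: a group of strong targets fell in both homozygous arrays, and others, Mdm2 among them, did not pass the test. Of 14 tested targets for arrest and feedback, 0 were called higher and 3 lower, where 1.64% and 5.78% of all tested genes were called. Their median log2 difference was -1.30 against -0.09 over all tested genes, and it was -0.77 with no filter on dim genes and -0.81 with the mean of all probe sets. The median was -1.04 in homozygous array 1 and -0.35 in homozygous array 2, each against the heterozygous mean. Of 13 targets for cell death, 2 were called lower with a median of -1.04 (-1.08 in array 1 and -1.16 in array 2), which became -0.15 when genes under the 60th percentile of mean signal were left out. Of 16 targets for growth restraint, metabolism and repair 5 were called lower, again beside 5.78% of all tested genes, with a median of -0.96. That median was -1.52 in array 1, which is also its value without array 2, and -0.80 in array 2. No target in these 3 lists was called higher.

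Cdkn1a encodes p21, the CDK inhibitor through which p53 stops the cell cycle. It read 2519 and 2646 in the wild-type arrays, 1548 and 1437 in the heterozygous arrays and 192 and 111 in the homozygous arrays. The groups did not overlap, and the homozygous arrays were 10.2-fold below the heterozygous ones (log2 -3.35, SE 0.32, adjusted p = 0.0098). Ccng1, a cyclin of the p53 feedback loop, kept high signals throughout, with 7279 and 7657 in the heterozygous and 3497 and 2842 in the homozygous arrays. Its fall was 2.37-fold (SE of the log2 difference 0.23, adjusted p = 0.0409). Cd82, a membrane protein that restrains cell movement, read 2392 and 2670.0 against 778 and 919 and fell 2.99-fold (adjusted p = 0.0274), although only 1 of its 2 probe sets had that sign.

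Mdm2, which marks p53 for destruction and is induced by it, read 939 and 933 in the heterozygous arrays and 1136 and 1253 in the homozygous arrays, a log2 difference of 0.35 (SE 0.24, adjusted p = 0.357). Plk2, a kinase of the G1 checkpoint, stood higher in both homozygous arrays, at 4084 and 3288 against 1679 and 1283, with an adjusted p of 0.124. Btg2, an antiproliferative cofactor, read 2442 and 2061 against 445 and 1712, so array 1 alone was far below the heterozygous pair (adjusted p = 0.207). Gas6, the ligand of the Axl receptors, had the lowest value of the tested genes of the list at 27.1 in homozygous array 1, while array 2 read 3655 and the heterozygous arrays 13150.2 and 19165 (adjusted p = 0.145).

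Among the death targets, Fas, the death receptor, read 159 and 137 in the heterozygous arrays, and both homozygous arrays lay under the floor, at least 5.91-fold lower (adjusted p = 0.0098). Eda2r, a receptor for ectodysplasin, read 269 and 149.8 and was at least 8.02-fold lower, again with both homozygous arrays under the floor (adjusted p = 0.0152). Perp, a membrane protein of the desmosome, read 992 and 605 against 1945 in homozygous array 1 and 327 in array 2, on opposite sides of the pair. Ei24 read 4191 and 4424 against 1680.4 and 2595, without overlap and with an adjusted p of 0.0793. Trp53inp1, a promoter of p53-dependent death, read 2046 and 3058 against 51.6 and 938 (adjusted p = 0.145).

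The growth-restraint targets held the largest number of calls. Ddit4 (REDD1), a stress-induced brake on mTOR, read 10347 and 13305 in the heterozygous and 1256 and 2153 in the homozygous arrays, and fell 7.13-fold (log2 -2.83, SE 0.43, adjusted p = 0.0277). Its relative Ddit4l read 828 and 591 against 93.3 and 42.3 and fell 11.1-fold (SE 0.45, adjusted p = 0.0198). Sesn1, a sestrin that restrains mTOR, read 3735 and 3365 against 993 and 1255, a 3.18-fold fall carried by all 4 of its probe sets (adjusted p = 0.0314). All 3 brakes on growth signalling were thus low in both homozygous arrays.

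Ephx1, an epoxide hydrolase of detoxification, read 3193 and 4389 against 569 and 291 and fell 9.2-fold (adjusted p = 0.0231). Dglucy, a mitochondrial D-glutamate cyclase, read 195 and 228 against 3.63 and 45.4 and fell (adjusted p = 0.0307), with homozygous array 1 under the floor. Gadd45a, a damage-response gene, read 2509 and 3827 against 666 and 1310.3 (adjusted p = 0.0669). Tigar, a fructose bisphosphatase, had the largest positive difference of this list, with 235 and 318 against 828 and 602 (adjusted p = 0.072). Without the floor the calls of Ccng1 and Dglucy were lost, with adjusted p-values of 0.0523 and 0.0997.

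**Figure D2:**
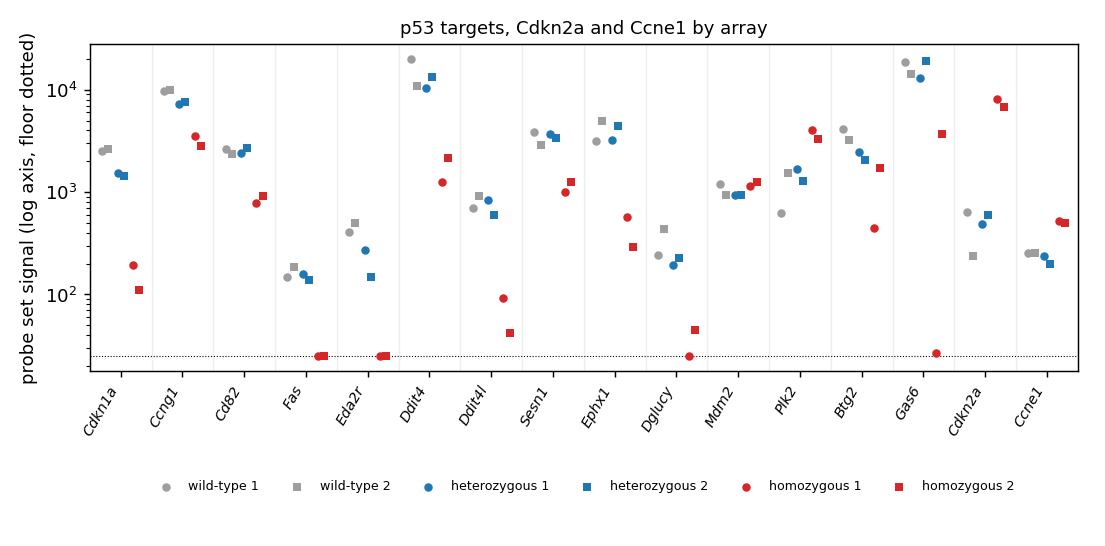
Signal of p53 targets, Cdkn2a and Ccne1 in each of the 6 arrays (log axis, signals under 25 drawn at the dotted floor, 2 arrays per genotype). The homozygous arrays lie below the other 4 for Cdkn1a, Fas, Eda2r, Ddit4l and Ephx1, above them for Cdkn2a, and overlap them for Mdm2.

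Among the CDK inhibitors, Cdkn2a, which encodes p16 and the Mdm2 antagonist p19ARF, moved the opposite way to Cdkn1a. It read 492 and 598 in the heterozygous arrays, 639 and 237 in the wild-type arrays, and 8180.2 and 6769 in the homozygous arrays. The rise was 13.7-fold (log2 3.78, SE 0.50, adjusted p = 0.0209). This gene has 1 probe set in the data, so the transcripts for p16 and p19ARF were not analysed here separately. Of the 7 tested inhibitors, 6 had a positive difference, and Cdkn2a was called higher and Cdkn1a lower. Cdkn1b, which encodes p27, read 2872 and 2136 against 3684 and 4452 (adjusted p = 0.15), and Cdkn2b, the neighbour of Cdkn2a, read 1117 and 1107 against 1522 and 2149 (adjusted p = 0.138).

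Of 18 cyclins, CDKs and RB family genes of the G1 phase, 14 had a positive difference (median 0.66). In this list 1 was called, beside 1.64% of all tested genes called higher. The called gene was Ccne1, the cyclin that activates CDK2 at the start of S phase. It read 235 and 199 against 520.1 and 501, a 2.36-fold rise (SE 0.22, adjusted p = 0.0386). Ccnd2, a D-type cyclin, read 7468 and 9188 against 15918 and 15263 (adjusted p = 0.0888). Ccnd1 split the homozygous arrays, with 7776 in array 1 and 493 in array 2 around heterozygous signals of 2470.2 and 1131.

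All 30 tested genes of G2 phase and mitosis were higher in the homozygous mean, with a median log2 difference of 1.67. Mybl2 was the 1 gene called, beside 1.64% of all tested genes called higher. The homozygous arrays agreed closely, with medians of 1.73 and 1.69, and 29 of the 30 genes had both homozygous signals above both heterozygous ones, 96.7% against 28.2% of all tested genes. The heterozygous arrays did not agree: array 2, from the 12-week mouse, minus array 1 had a median of -1.67. Taken against heterozygous array 1 alone the median difference was 0.82, and against array 2 alone it was 2.49. Mki67, the marker of cycling cells, read 4352 and 966 in the heterozygous arrays, 1246 and 4031 in the wild-type arrays and 5271 and 6747 in the homozygous arrays (adjusted p = 0.275).

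Mybl2, the MYB-family factor that switches on G2 genes, read 154 and 88.4 against 601 and 399.5 and rose 4.2-fold (SE 0.41, adjusted p = 0.047), a call lost without the floor (adjusted p = 0.0605). Top2a, the topoisomerase that untangles chromosomes, read 5671 and 1887 against 12981 and 13450.1 (adjusted p = 0.117), with this sign in 2 of its 3 probe sets. Ube2c, the ubiquitin-conjugating enzyme of the anaphase-promoting complex, read 5805 and 1644 against 11923 and 14612 (adjusted p = 0.118). These 2 genes and Mybl2 are among 6 of the list that had a 2-fold gap and homozygous arrays within 2-fold of each other.

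Many genes of this phase share short promoter elements, so the 250 bases upstream of each start site were searched on both strands. The letters TTTGAA, the core of the cell-cycle homology region through which the DREAM complex holds mitotic genes off, were found in 9 of 23 list members with a promoter sequence, 39.1% against 12.5% of 8892 tested genes. The CCAAT box was found in 18 of 23, 78.3% against 41%. It was also frequent outside this list, in 15 of 21 replication genes (71.4%) and 15 of 18 cholesterol and fatty acid genes (83.3%). The promoters of Top2a and Ube2c are shown because both signals were highest in the homozygous pair and both hold the 2 elements near the start site. Aurka, Nek2 and Mybl2 also had a 2-fold gap and agreeing homozygous arrays. None of these held TTTGAA in the 250 bases, and Mybl2, the called gene, held no CCAAT box either. The 150 bases before the start are given 5′ to 3′ on the gene's strand (RefSeq, GRCm38.p6), with TTTGAA read on the opposite strand, as TTCAAA, in capitals, for Top2a at chr11:99024190-99024339 on the minus strand and Ube2c at chr2:164769779-164769928 on the plus strand.
Top2a: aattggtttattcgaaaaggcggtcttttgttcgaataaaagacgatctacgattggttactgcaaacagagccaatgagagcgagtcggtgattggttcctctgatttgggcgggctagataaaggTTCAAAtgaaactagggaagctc
Ube2c: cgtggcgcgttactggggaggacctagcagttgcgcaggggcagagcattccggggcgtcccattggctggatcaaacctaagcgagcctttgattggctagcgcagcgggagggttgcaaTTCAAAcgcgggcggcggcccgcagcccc
The capitals begin 23 bases before the start in Top2a and 29 bases before it in Ube2c. A match describes the letters in this window and shows no binding.

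DNA replication and repair genes gave the same kind of result. All 27 tested replication genes and all 21 repair genes had a positive difference, with medians of 1.31 and 1.11. In either list limma called 0, where 1.64% of all tested genes were called higher, so 0 is close to that share. In both lists the homozygous medians were positive in each array, at 1.63 and 0.99 for replication and 1.43 and 1.03 for repair, and heterozygous array 2 minus array 1 had medians of -1.34 and -0.57. Without heterozygous array 2 the medians were 0.78 and 0.74. Pcna, the sliding clamp of the polymerases, read 12594 and 5650.0 against 19901 and 13400.4 (adjusted p = 0.272), and Mcm7, a subunit of the replicative helicase, read 10043 and 3921 against 16256 and 12477 (adjusted p = 0.224). How far the low cycling genes of heterozygous array 2 set these differences was not tested beyond leaving that array out.

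Markers of the surface epithelium were lower in the homozygous arrays, although few passed the test, and the homozygous arrays differed in how low they were. Of 23 tested markers, 22 had a negative difference (median -1.84), 20 had both homozygous signals below both heterozygous ones, 87% against 34.7% of all tested genes, and 3 were called lower, beside 5.78% of all tested genes. The median was -2.53 in homozygous array 1 and -1.35 in array 2. Upk1b, a uroplakin of the mesothelial surface, read 21419 and 17037 against 4628 and 4584 and fell 4.15-fold (log2 -2.05, SE 0.28, adjusted p = 0.0226). Lgals7, a galectin of stratified epithelia, read 4224 and 1275 against 209 and 128 and fell 14.2-fold (SE 0.66, adjusted p = 0.0348). Crip1, a small LIM-domain protein, read 24865 and 25361 against 5356 and 1916 and fell 7.84-fold (adjusted p = 0.0338).

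Aldh1a2, which makes retinoic acid in mesothelium, had a larger difference without a call: it read 19538 and 17988 in the heterozygous arrays, 1979 in homozygous array 2 and under the floor in homozygous array 1 (adjusted p = 0.0945). Igfbp5, a secreted binder of insulin-like growth factors, read 17599 and 21675 against 30.7 and 1258 (adjusted p = 0.0675). Krt7, a simple-epithelium keratin, read 16318 and 11838 against 60.5 and 1729 (adjusted p = 0.0797). Krt18 was the single member with a positive difference, at 25436 in homozygous array 1 and 5623 in array 2 around heterozygous signals of 11707 and 6729. Wt1, the mesothelial transcription factor, kept signals of 5949 and 8457 against 14529 and 13269 (adjusted p = 0.0791).

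Epithelial adhesion genes held the epithelial calls of largest size. Of 24 in the list 14 passed the filter, and 5 of these were called lower, beside 5.78% of all tested genes, with a median of -2.05. Leaving out genes under the 60th percentile of mean signal gave -0.30, no filter gave -1.04 and leaving out homozygous array 1 gave -1.38. Epcam, an adhesion protein of simple epithelia, read 1033 and 555 in the heterozygous arrays and 27.6 and 22.2 in the homozygous arrays, which put it at or near the floor in both. It was 28.8-fold lower with array 2 set at 25 (log2 -4.85, SE 0.38, adjusted p = 0.00857). Ocln, the tight-junction protein occludin, read 430.0 and 428 against 35.4 and 19.7 and fell 14.4-fold with array 2 at the floor (adjusted p = 0.0231). Spint1, an inhibitor of membrane serine proteases, read 475 and 535 against 65.8 and 42.5 and fell 9.53-fold (SE 0.38, adjusted p = 0.0159).

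Dsc2, a desmosomal cadherin, read 249.7 and 199.9 against 53.3 and 65.7 and fell 3.78-fold (adjusted p = 0.0235). Cldn3, a claudin of the tight junction, read 4946 and 3553 against 3.36 and 256 (adjusted p = 0.0395), a call lost without the floor (adjusted p = 0.0923). Tjp1, the junction scaffold ZO-1, read 4632 and 2623 against 4398 and 2768, a log2 difference of 0.00 (SE 0.38). Of 13 mesenchymal-transition genes 0 were called, where 1.64% of all tested genes were called higher and 5.78% lower, so 0 is close to those shares. Between the homozygous arrays 7 of the 13 differed over 2-fold, against 20.2% of all tested genes. The list's median of -0.05 was near that of all tested genes and took either sign across the normalisations tried. Its differences ran from -0.82 to 1.98. Vim, the intermediate filament vimentin, read 29861 and 28426 against 29983 and 28014, and Cdh2, N-cadherin, read 10091 and 9901 against 7657 and 4373 (adjusted p = 0.166). The junction list thus held calls and the mesenchymal list held none, which does not show that mesenchymal genes stayed level.

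Markers of other ovarian cells differed from list to list. In bulk samples, fewer cells of a type and less RNA per cell cannot be told apart. All 14 tested macrophage genes had a negative difference (median -2.75), and 7 were called lower, beside 5.78% of all tested genes. Summed over the 20 macrophage genes on the array, the signal was 6833 and 6244 in the heterozygous, 4023 and 3135 in the wild-type and 899 and 916 in the homozygous arrays. In the homozygous arrays 10 and 13 of these 20 genes lay under the floor, against 0 and 2 in the heterozygous arrays. Lyz2, macrophage lysozyme, read 1199.5 and 999 against 8.98 and 4.02, at least 43.8-fold lower, and Ctss, cathepsin S, read 1347 and 1152 against 3.55 and 22.8, at least 49.8-fold lower (adjusted p = 0.00295 and 0.00379).

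Tyrobp and Fcer1g, adaptors of activating immune receptors, were also called lower. So were C1qa of the complement system, the pore-forming Mpeg1 and the tetraspanin Cd53, which had this sign in 1 of its 2 probe sets. Cd68, at 386 and 1687 against 67.7 and 71.3, was lower without a call (adjusted p = 0.0501). Tyrobp read 249 and 189 against 4.01 and 4.5, at least 8.69-fold lower (adjusted p = 0.0098). Their part in the differences of other lists was not tested. Of 7 tested endothelial genes 6 had a negative difference and 3 were called lower, beside 5.78% of all tested genes. The endothelial list's median was -1.77, and it was -0.26 with no filter on dim genes. Icam2, an adhesion molecule, read 1098 and 876 and was at least 39.2-fold lower with both homozygous arrays under the floor (adjusted p = 0.00837). Kdr, the VEGF receptor, read 1104 and 1483 against 35.9 and 60.4 and fell 27.5-fold (SE 0.46, adjusted p = 0.0098), and Esam, a junction protein, read 6836 and 7906 against 1791 and 2610.4. Eng, a TGF-beta co-receptor, went the other way, at 127 and 103 against 127 and 164 (adjusted p = 0.426). Robo4 and Egfl7 were not called (adjusted p = 0.205 and 0.209). The defining endothelial genes Cdh5, Pecam1 and Tek were too dim to be tested, as were Tie1, Emcn, Vwf, Flt1 and Cldn5. Whether the 3 called genes mark endothelial cells here was not tested.

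Granulosa and theca genes separated the homozygous arrays from each other. Their summed signal over 15 genes was 12149 and 15249 in the heterozygous arrays, 845 in homozygous array 1 and 8362 in homozygous array 2, and all 8 tested genes read higher in array 2 than in array 1. Fst, the activin binder follistatin, was the only call, at 416 and 659 against 101 and 120.4 (4.74-fold lower, adjusted p = 0.0317). Of the oocyte list 1 of 10 genes and of the lymphocyte list 2 of 10 passed the filter, with 0 calls in either.

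**Figure D3:**
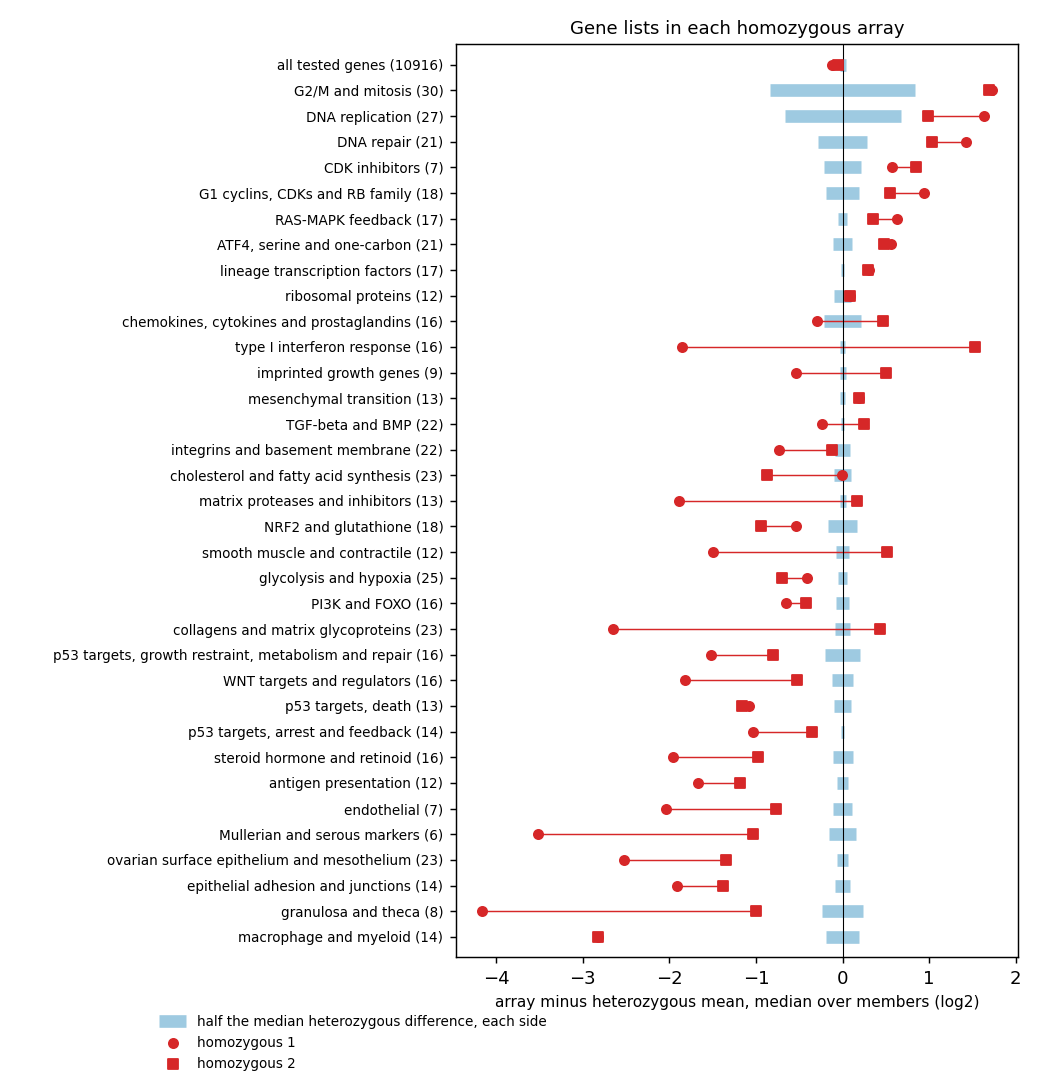
Median difference from the heterozygous mean (x axis, log2 signal) for each gene list with at least 5 tested members, in homozygous array 1 (circle) and array 2 (square), with the number tested in brackets. The pale bar spans the median difference between the heterozygous arrays centred on 0: it is widest for mitosis and replication genes, and the homozygous arrays take opposite signs for interferon, collagen and smooth muscle genes.

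With signals under the floor set to it, the largest fall of all tested genes that agreed between the homozygous arrays was in a hypoxia gene. Car9, carbonic anhydrase IX, which buffers acid at the surface of hypoxic cells, read 8013 and 9725 in the heterozygous arrays, 2515 and 7434 in the wild-type arrays and 56.3 and 73.9 in the homozygous arrays. The difference was 137-fold (log2 -7.10, SE 0.54, adjusted p = 0.00806). This rank depends on the floor, which limits the fall of genes with homozygous signals under it. Without the floor Car9 stayed at -7.10, while Hsd17b2, Pla2g5 and Icam2 fell further (log2 -9.28, -8.99 and -7.69). Ndrg1, a stress gene induced by low oxygen, read 13858 and 8631 against 652 and 541 and fell 18.4-fold, with the same sign in all 5 of its probe sets (SE 0.31, adjusted p = 0.008). Bnip3, a mitophagy receptor, read 7555 and 5911 against 2174 and 2289 and fell 3-fold (adjusted p = 0.0282).

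The rest of the hypoxia and glycolysis list did not move in step with these 3. Of 25 tested members 21 had a negative difference, but the median was -0.66 (-0.41 without homozygous array 2) and 0 were called higher. The glycolytic enzymes Tpi1, Aldoa and Pgk1, with the highest signals, had log2 differences of -0.13, -0.72 and -0.49 (adjusted p = 0.77, 0.133 and 0.312). Slc2a1, the main glucose transporter, read 6709 and 4556 against 7197 and 2811.

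The hypoxia-inducible factors bind the core ACGTG. These letters were found on either strand upstream of 17 of 24 list members, 70.8% against 25.7% of all tested genes. The promoters of Car9 and Bnip3 are shown as those of 2 called genes with the core in this stretch (150 bases upstream, RefSeq, GRCm38.p6, gene's strand, core in capitals). Car9 lies at chr4:43506876-43507025 on the plus strand and Bnip3 at chr7:138909507-138909656 on the minus strand.
Car9: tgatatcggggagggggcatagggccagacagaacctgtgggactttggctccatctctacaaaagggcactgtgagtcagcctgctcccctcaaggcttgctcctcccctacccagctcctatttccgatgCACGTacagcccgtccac
Bnip3: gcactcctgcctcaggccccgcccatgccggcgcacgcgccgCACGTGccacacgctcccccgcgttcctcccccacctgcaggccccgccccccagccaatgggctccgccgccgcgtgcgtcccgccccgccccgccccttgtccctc
In Car9 the core lies 18 bases before the start and is read on the opposite strand, as CACGT, and in Bnip3 it lies on both strands as CACGTG, 108 bases before the start. Genes that did not pass the test hold the core too, Aldoa and Pgk1 among them.

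**Figure D4:**
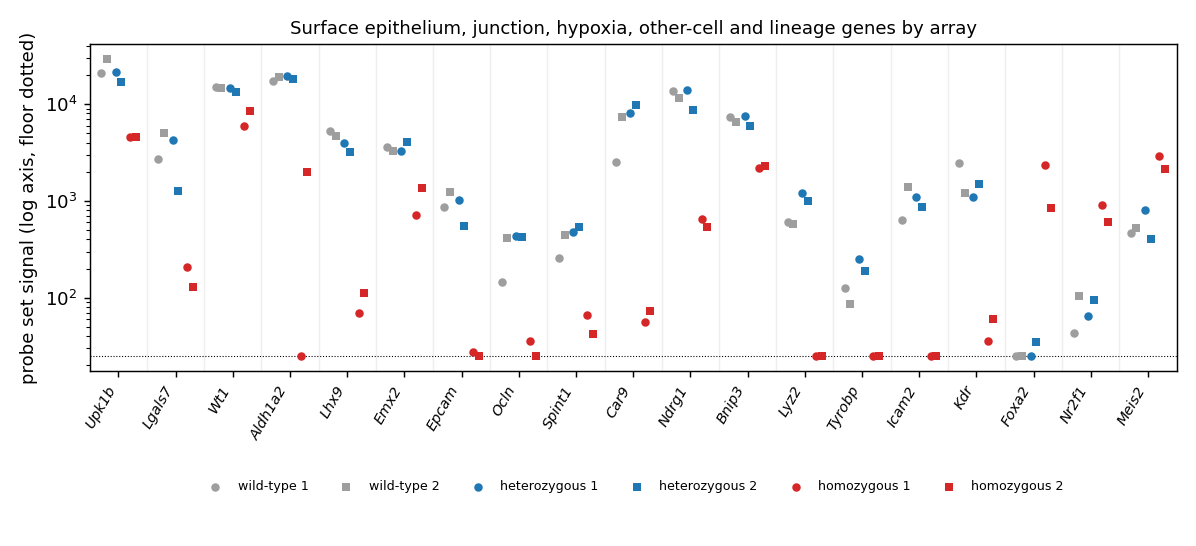
Signal in each of the 6 arrays (log axis, floor of 25 dotted) for genes of the surface epithelium, cell junctions, hypoxia, macrophages, endothelium and cell lineage. Homozygous arrays (red) lie far below the other 4 for Lhx9, Epcam, Car9, Lyz2 and Icam2 and above them for Foxa2, Nr2f1 and Meis2, while Aldh1a2 differs between the homozygous arrays.

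Several developmental transcription factors moved sharply. Foxa2, the forkhead factor of endoderm and uterine glands, read 22.4 and 35.2 in the heterozygous arrays and 2364 and 840.3 in the homozygous arrays. The rise was 47.5-fold with heterozygous array 1 set at the floor (log2 5.57, SE 0.52, adjusted p = 0.0098). Nr2f1 (COUP-TFI), an orphan nuclear receptor, read 64.2 and 95.7 against 907 and 609 and rose 9.47-fold (adjusted p = 0.0282). Meis2, a HOX cofactor, read 813 and 403 against 2909 and 2135 and rose 4.36-fold in all 4 of its probe sets (adjusted p = 0.0421, and 0.0558 without the floor).

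In the other direction, Lhx9, a LIM-homeobox factor needed to form the gonad, read 4011 and 3194 against 68.9 and 113 and fell 40.5-fold (SE 0.32, adjusted p = 0.00721). Emx2, also needed for the urogenital tract, read 3289 and 4062 against 716 and 1354 and fell 3.71-fold (adjusted p = 0.044, and 0.0571 without the floor). Lhx9 and Emx2 were the called members of the Mullerian and serous list, where 6 of 16 genes on the array were tested. Of all tested genes 5.78% were called lower. The list's median was -1.78, and it was -0.27 with no filter on dim genes. Pax8, the marker of oviduct-type tumours, stayed dim at 148 and 112 against 41.9 and 81.7 (adjusted p = 0.116). Sox4 and Gata6, with the highest signals of the lineage factors, had log2 differences of -0.20 and -0.56 and no call.

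Eya4, a phosphatase and cofactor of sine oculis homeobox factors, had the largest rise among called genes whose homozygous arrays agreed within 2-fold, from 25.5 and 27.6 to 1014 and 658 (30.8-fold, SE 0.41, adjusted p = 0.00904). The heterozygous signals stood just above the floor, and without it the adjusted p was 0.0612. Eya4 rose in 3 of its 4 probe sets. Cxcl12, the chemokine that attracts CXCR4-bearing cells, read 320.0 and 96.3 against 1842 and 2446 and rose 12.1-fold (adjusted p = 0.0306). This sign held in 2 of its 3 probe sets. Ptger4, a prostaglandin E2 receptor, read 84.6 and 33.9 against 420.5 and 717 and rose 10.3-fold (adjusted p = 0.0277). Pdzrn3 rose 15.8-fold at the probe set used, but its other probe set had the opposite sign.

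The remaining largest rises were Gpr85, an orphan receptor, Aif1l, an actin-binding protein, Sh3kbp1, an adaptor of receptor endocytosis, Rrp12, a ribosome-assembly factor, Vgll2, a TEAD cofactor, and Zfand4, Fam107b and 2700038G22Rik. Aif1l was the most even of these, with 178 and 119 against 1129 and 1054 (7.51-fold, SE 0.28, adjusted p = 0.0098). Sh3kbp1 read 382 and 273 against 2792 and 1692 in the same direction in all 4 probe sets (adjusted p = 0.0176). Vgll2 read 30 and 48.4 against 239.8 and 209, and its adjusted p of 0.0481 became 0.0727 without the floor. Gpr85 rose in 3 of its 4 probe sets.

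Steroid and retinoid enzymes were among the largest differences in both directions. Cyp1b1, which hydroxylates oestradiol, read 1462 and 516 against 9528 and 9781 and rose 11.1-fold in all 3 probe sets (log2 3.47, SE 0.50, adjusted p = 0.0261). Hsd17b2, which turns oestradiol into oestrone, read 2813 and 3812 against 6.17 and 4.47, at least 131-fold lower (adjusted p = 0.00756). Aldh1a7, an aldehyde dehydrogenase close to Aldh1a1, read 8324 and 8691 against 130.4 and 121 and fell 67.7-fold (SE 0.47, adjusted p = 0.00822). Aldh1a1 itself read 22817 and 26380.2 against 1780.3 and 7993 (adjusted p = 0.0742). Esr1, oestrogen receptor alpha, read 3447 and 4271 against 89.3 and 804 (adjusted p = 0.0777), and its target Pgr, the progesterone receptor, read 346 and 1208 against 10.1 in array 1 and 1675 in array 2. Probe sets of such close relatives as Aldh1a1 and Aldh1a7 can share transcripts, and the 2 signals were not separated further.

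Other large falls came from genes of several functions. Ndn, the imprinted growth suppressor necdin, read 4182 and 1963 against 11 and 11.8, at least 115-fold lower, though 5 of its 8 probe sets had this sign (adjusted p = 0.00685). Smim22, a small membrane protein of epithelia, read 2546 and 3658 against 26.4 and 6.4 (adjusted p = 0.00295). Kctd14 read 10051 and 4935 against 69.8 and 131 and fell 73.7-fold (adjusted p = 0.0123). Apoc1, an apolipoprotein, read 2703 and 4712 against 70 and 67.3 and fell 52-fold (SE 0.32, adjusted p = 0.00676).

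Heph, a copper-dependent iron oxidase, read 996 and 1904 against 7.01 and 30.7 (adjusted p = 0.00756). Pla2g5, a secreted phospholipase, read 1208 and 1175 and was at least 47.7-fold lower (adjusted p = 0.0098). Lyz1, a lysozyme close in sequence to Lyz2, and Srgn, the proteoglycan of immune granules, were at least 97.2-fold and 52.4-fold lower (adjusted p = 0.00295 for both). Lyz1 had this sign in 2 of its 3 probe sets. Minar2 was at least 50-fold lower, with an adjusted p of 0.0162 that became 0.0629 without the floor.

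Genes of class I antigen presentation had negative medians in both homozygous arrays. Of 12 tested genes 11 had a negative difference (median -1.64), with medians of -1.67 in homozygous array 1 and -1.18 in array 2, and 3 were called lower, beside 5.78% of all tested genes. The list's median was -0.80 over genes above the 60th percentile of signal and -0.96 when probe sets were averaged. H2-K1, a class I heavy chain, read 8651 and 8756 against 1877 and 1941 and fell 4.56-fold in all 4 probe sets (log2 -2.19, SE 0.24, adjusted p = 0.0133). Tapbp, tapasin, which loads peptides, read 5933 and 6616 against 1610.0 and 2498 and fell 3.12-fold (adjusted p = 0.037). Psmb9, an immunoproteasome subunit, read 426 and 469 against 41.5 and 106 and fell 6.73-fold (adjusted p = 0.043, and 0.0571 without the floor). B2m, the shared light chain, read 14089 and 12228 against 6461 and 8771 (adjusted p = 0.128). The class I genes are many and alike, and their probe sets can share transcripts.

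The type I interferon response showed no such agreement. All 16 tested genes read higher in homozygous array 2 than in array 1, with medians of 1.53 and -1.86 against the heterozygous mean, so the list's median of 0.00 describes neither array. Ifitm3, a restriction factor, was the single call, at 3914 and 3761 against 8044 and 10049 (2.34-fold higher, adjusted p = 0.0433). Oasl2, of the 2-5A synthetase family, read 1756 and 1926 against 26.6 in array 1 and 767 in array 2. Rtp4, also induced by interferon, read 467 and 155 against 51.8 and 2192, on opposite sides of the heterozygous pair.

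Signalling lists gave scattered calls. Sgk1, a kinase downstream of PI3K and of glucocorticoids, read 625 and 627 against 8539 and 3158 and rose 8.29-fold (SE 0.49, adjusted p = 0.0305), while 11 of 16 PI3K and FOXO genes had a negative difference. Dusp4, a phosphatase that switches off ERK, read 866 and 906 against 3964 and 2746 and rose 3.72-fold (SE 0.28, adjusted p = 0.0271). Phlda1, induced by ERK signalling, read 2234 and 2172 against 5786 and 5948 and rose 2.66-fold (adjusted p = 0.0375). The RAS-MAPK list as a whole, with 9 of 17 differences positive and a median of 0.54, had a median of -0.12 over genes above the 60th percentile of signal and 0.35 without homozygous array 1.

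Sp5, a direct WNT target, read 584 and 901 against 38.6 and 24.2 and fell 23.3-fold with array 2 at the floor (adjusted p = 0.00817). Rnf43, which removes WNT receptors and is itself a WNT target, read 208 and 241 against 1.18 and 51.7 (adjusted p = 0.0274, and 0.134 without the floor). The WNT list's median was -1.04 over 16 tested genes, but 10 of these differed over 2-fold between the homozygous arrays, beside 20.2% of all tested genes. The list's median was -1.82 in array 1 and -0.53 in array 2. It was -1.68 without array 2, -0.66 without array 1 and -0.46 over genes above the 60th percentile of signal. Ltbp2, of the latent TGF-beta binding family, read 429.8 and 629 against 20.8 and 37.8 and fell 16.9-fold with array 1 at the floor (adjusted p = 0.00904), and the other 21 genes of that list had no call. Cxcl16, a chemokine of the scavenger receptor type, read 718 and 710.5 against 148 and 217 and fell 3.98-fold (adjusted p = 0.0289).

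The metabolic lists held 1 to 3 calls each, beside 1.64% of all tested genes called higher and 5.78% called lower. Mthfd2 and Shmt1, enzymes of the folate cycle, rose: Mthfd2 read 1542 and 1793 against 5081 and 4317 (2.82-fold, adjusted p = 0.0382) and Shmt1 read 429 and 264 against 1378 and 1061 (3.59-fold, adjusted p = 0.0363). In the same list of 21 tested genes Cth, which makes cysteine from cystathionine, read 1324 and 3639 against 302 and 405 and fell 6.27-fold (adjusted p = 0.044). Without the floor the adjusted p was 0.0504 for Mthfd2 and 0.0572 for Cth. Dhcr7, the last enzyme of cholesterol synthesis, read 2416 and 2050.2 against 622 and 649 and fell 3.5-fold (SE 0.29, adjusted p = 0.03). It was the 1 call among 23 lipid genes, beside 5.78% of all tested genes called lower.

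Gstm1, a glutathione transferase, read 9084 and 10058 against 427 and 1673 and fell 11.3-fold (adjusted p = 0.0388, and 0.0534 without the floor). It has close relatives whose transcripts its probe set may share, such as Gstm2, at 10823 and 10641 against 539 and 2440.3 (adjusted p = 0.0603). The median of 12 ribosomal protein genes was 0.09 (0.32 with median-centred arrays), with 0 calls and differences between -0.13 and 0.40.

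Where the homozygous arrays disagreed, a mean describes neither. For matrix and contractile genes homozygous array 1 was mostly the lower. Of 23 collagen and matrix genes 21 read higher in array 2. Between the homozygous arrays 19 differed over 2-fold, beside 20.2% of all tested genes. The list's medians were -2.65 in array 1 and 0.43 in array 2 against the heterozygous mean, with 0 calls. Array 1 lay below both heterozygous arrays for 18 of the 23 and above both for 5, and array 2 below both for 7 and above both for 12. Col3a1, a fibrillar collagen, read 22825 and 24594 against 255 in array 1 and 31824 in array 2. Col1a2, a chain of type I collagen, was high in both homozygous arrays, at 21105 and 32905 against 5417 and 8309, with an adjusted p of 0.0927. The smooth muscle list had medians of -1.50 and 0.51, with array 2 below both heterozygous arrays for 2 of 12 genes and above both for 8. The protease and inhibitor list had -1.89 and 0.17, with array 2 below both for 6 of 13 and above both for 6. The share of all tested genes outside the heterozygous pair in a single homozygous array was not counted. It is at least the 28.2% above and 34.7% below found for both arrays together, so these counts have no background of their own. Itgb8, an integrin that activates latent TGF-beta, was the only call among 22 integrin and basement membrane genes, at 4377 and 2468 against 361 and 902 (adjusted p = 0.0489, and 0.0625 without the floor).

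Among the genes furthest apart, Crispld2 read 7.83 in homozygous array 1 and 7801 in array 2, with 314 and 555 in the heterozygous arrays. Myl9, a myosin light chain of contractile cells, read 82.5 and 13293 around 1635 and 2942. C1s1 of the complement cascade read 47 and 10403 against 7200.0 and 10917, and Igfbp3 read 48.3 and 7057 against 6857 and 9524, so for these only array 1 stood apart. Gabra4, Kcnk1, Plagl1 and Inhbb also read high in array 2 and under the floor in array 1.

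In the opposite direction, Emb, a partner of lactate transporters, read 7555 in homozygous array 1 and 51.4 in array 2, against 78 and 109.6 in the heterozygous arrays. Anxa8, an annexin, read 4966 and 69.9 against 74.2 and 142, and Il33, an alarmin of barrier cells, read 2113 and 33.3 against 308 and 255. Syt9, Gfpt2, Ank3, Ifitm1 and Iqgap2 were likewise high in array 1 alone. None of these 16 genes was called, and with 2 arrays per genotype it was not tested whether the difference belongs to the animal, the culture or the array.

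**Figure D5:**
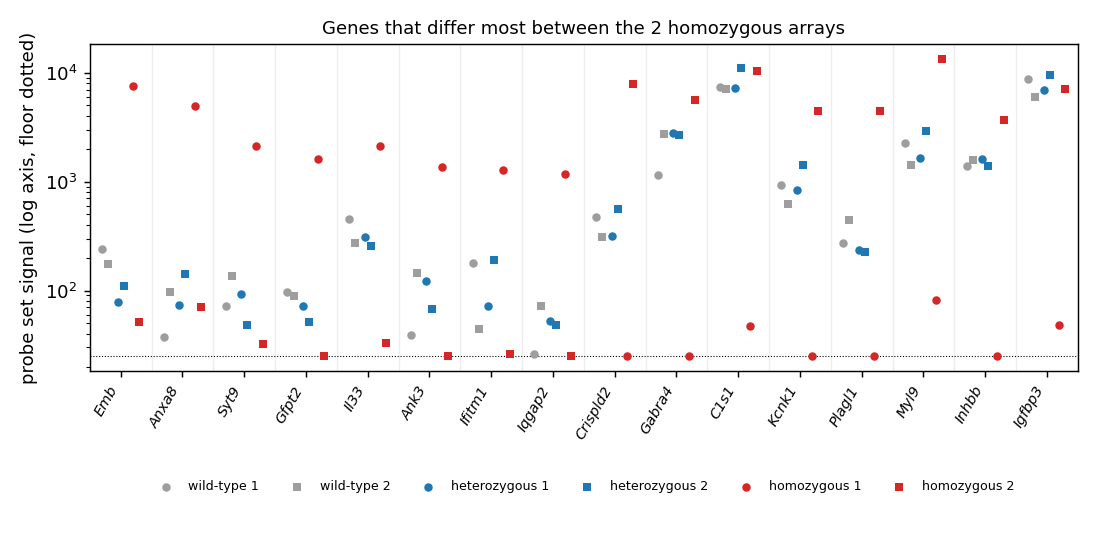
Signal in each of the 6 arrays (log axis, floor of 25 dotted) for the 16 tested genes with the largest differences between the 2 homozygous arrays. The first 8, Emb to Iqgap2, are high in homozygous array 1 only, and the last 8 are low there and high in homozygous array 2.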

How the data were processed

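RNA of 6 samples was labelled with biotin and hybridised to Affymetrix mouse arrays, per the labels' protocols. The deposited table gives each of 45101 probe sets as a linear intensity. The submitters' processing notes name RMA, yet the signals are not on the log2 scale of that method and each array has the same trimmed mean of 500.0, as values scaled to a target have. What software made them is not stated there. Depth does not apply to arrays, and precision is limited by their number.

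Signals under 25 were set to 25 before taking log2. GEO's platform annotation gave 34958 probe sets 1 symbol, 932 several and 9211 none. Of those with 1 symbol, 34754 were matched through Entrez identifiers to RefSeq genes, whose symbols were used. Probe sets with several symbols or none were left unnamed. Each of 18194 genes kept its probe set with the highest mean, and genes at or above the 40th percentile of mean signal (65.4) were tested. Group means of all 6 arrays were fitted with limma 3.58.1 (R 4.3.3) and eBayes, and homozygous minus heterozygous was tested with Benjamini-Hochberg adjustment over the 10916 tested genes. The fit was tested on simulated data. Mean variance was 0.637 in the homozygous, 0.154 in the heterozygous and 0.18 in the wild-type pair. A fold for a gene whose 2 homozygous signals lie under the floor is computed against 25 and written as "at least".

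The comparison and the 36 gene lists were chosen with earlier results of these data known. Named are the 15 largest called rises and falls among genes whose homozygous arrays agree, each list's called members and up to 3 further members with the highest signal, 8 genes that earlier results name, and the 8 genes furthest apart between the homozygous arrays in each direction. Cdkn2b, Col3a1, Gstm2, Igfbp5, Krt7, Krt8, Oasl2, Pax8, Perp, Rtp4, Slc2a1, Tigar, Trp53inp1, Ube2c and the genes at the edge of the gap were named after their values were seen. Alternatives changed the floor, the filter, the probe set rule, the scaling, the arrays fitted and the spread model. Replicate numbers were not taken to pair samples: the correlation of same-numbered deviations was 0.16 between homozygous and heterozygous, -0.10 between homozygous and wild-type and -0.30 between heterozygous and wild-type arrays. Promoters come from RefSeq (GRCm38.p6), searched with Python 3.11.15, and figures used matplotlib 3.10.9. Some genes are not analysed here.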

Additional observations from a re-analysis of the deposited data

How the results depend on the processing

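The main counts were 179 genes called higher, 631 called lower, 269 higher and 657 lower with agreeing homozygous arrays. Without the floor the calls were 95 and 351, and 441 of these 446 genes were also called with it. With no filter the calls were 89 and 212. A filter at the 60th percentile gave 344 called lower and 260 lower with agreement. Fitting only the 4 arrays compared gave 11 and 197, and a spread differing between groups gave 90 higher. With the replicate block, on numbers the samples share only in name, the calls were 40 and 316. Without wild-type array 2 and heterozygous array 1, limma called 0 higher and 0 lower (1467 at an unadjusted p under 0.05), and 750 higher genes agreed. Leaving out 1 array at a time, calls ranged from 0 to 840 higher and 0 to 2083 lower, and agreeing genes from 269 to 744 higher and 630 to 1001 lower; agreement has no value without either homozygous array. Agreement within 0.5 left 176 higher genes, no distance limit gave 1015 lower, and no minimum gap gave 2886 and 2861. Uncalled genes that were called with the sign turned when 1 homozygous array was left out gave log2 differences, without array 1 and without array 2, of 2.60 and -4.73 (Myl9), 4.22 and -4.06 (Crispld2), -3.08 and 2.91 (Il33) and 4.28 and -3.20 (Plagl1). Of 81 named called genes, 62 kept the call without the floor, 49 with the replicate block, 35 in the 4 arrays, 77 without homozygous array 2 and 64 without homozygous array 1. None kept it without either heterozygous array. The floor of 50, the probe set mean, quantile normalisation and median centring kept all 4 counts within 1.5 times, and median centring moved the median of all genes from -0.09 to 0.14. The causes were not tested.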
